A study of Mus musculus with 11 samples.

Results

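MamBo38, a mouse mammary carcinoma line that had lost HER2, was compared with MamBo89, a line that had kept it, in 8 of the 11 RNA-sequencing libraries of the series. The 8 were chosen by the line in their label, 4 for MamBo38 (labelled HER2 loss) and 4 for MamBo89 (labelled HER2 stable), and the libraries of a further line, MamBo43, were left out. All lines came from mammary tumors of virgin female FVBhuHER2 mice, which carry a human HER2 transgene, and grew in the same serum-rich medium. MamBo89 was set up from one tumor, and MamBo38 from a tumor that formed in mice injected with MamBo43, a line of a different tumor, so that line, tumor of origin, passage through an animal and HER2 status cannot be told apart here.

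The MamBo38 libraries were 2 untreated cultures (NT190617 and NT241016 in the label), a culture given trastuzumab at 30 µg/ml for 60 days (TRT190617) and a culture given it for 30 days and then grown without it for a further 30 days (TRNT190617). The digits at the end of a label, whose meaning the labels do not give, are called its code here. The MamBo89 libraries all had the code of NT241016, called the shared code, and were untreated cells, a library named AG3, a TRT culture and a TRNT culture at the same dose and times. AG3 is labelled untreated, and the study's methods list a HER2-positive clone among the MamBo89 samples without saying which library it is. The promoter of the transgene is not given in the sources used here, and the table lists mouse genes only, so the human transgene was not analysed here. The study's methods speak of replicates of the samples, whereas the labels give 1 library for each line, treatment and code, and whether a library pools replicates is not given in the sources used here. Nothing states that the libraries of a line came from separately derived cultures, so p-values measure the spread between these libraries, which may be technical. In the text, values of 1 gene are given in the order NT190617, NT241016, TRNT and TRT for MamBo38, and AG3, untreated, TRNT and TRT for MamBo89.

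HER2 is a receptor tyrosine kinase of the ErbB family that signals mainly by pairing with other members of the family, and mammary cells that carry it in excess usually keep an epithelial form, with cell junctions, keratins and milk-related genes. In an epithelial to mesenchymal transition (EMT), transcription factors of the Zeb, Snail, Twist and Prrx families are active, junction and keratin genes are silent, and genes of the extracellular matrix and of spindle-shaped cells are expressed. Trastuzumab is an antibody against human HER2.

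Total counts ranged from 17263613 to 27127662 in MamBo38 and from 17040454 to 22295814 in MamBo89, and 3 counts, taken as the floor of detection, were worth 0.114 to 0.181 CPM (counts of a library scaled to the same total in each). The 3 MamBo38 libraries that lack the shared code were close to each other, with 10 to 13 genes above 5 CPM that differed at least 2-fold in a pair, against 571 to 727 between them and NT241016. In MamBo89, AG3 differed from the others in 1704 to 2188 genes, and the others from each other in 57 to 278. No pair agreed within sampling noise. AG3 and the MamBo38 library NT241016 also had the highest proliferation genes of their lines, given with those genes below. Intervals and floors cover counting error only.

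The lines differed in a large share of their transcriptome. Of 12408 genes with enough counts for a test, edgeR called 4862 (39.2%), with an adjusted p under 0.1 and at least a log2 fold change of 1 in either direction, 2422 higher (19.5%) and 2440 lower (19.7%) in MamBo38. Of these, 2660 differed by a log2 fold change of at least 2, 1450 by at least 4 and 546 by at least 8. Among the called genes, 163 had no count in any MamBo38 library and 114 none in any MamBo89 library. The 4 libraries of one line lay wholly above or below those of the other in 7510 genes (60.5% of those tested, 30.1% with MamBo38 above and 30.4% with MamBo38 below), and in 4609 of the called ones. The median log2 fold change of all genes tested was -0.03. In the text, a log2 fold change is that of MamBo38 against MamBo89 with its SE, from 4 libraries a line, and a fold is a ratio of mean CPM.

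The 12 genes with the largest difference in each direction were taken from called genes whose lines do not overlap. Their calls and lack of overlap were thus conditions of the choice. They were at 10.9 CPM (Lcn2) or less in every library of one line and at 229.6 CPM (Wfdc18) or more in every library of the other. Trf, which encodes transferrin, an iron carrier also secreted into milk, was at 1.43, 1.79, 0.422 and 1.18 CPM in MamBo38 and at 23350.0, 49877, 37226 and 42142 CPM in MamBo89. Every MamBo89 library lay above every MamBo38 library, with AG3 the lowest of its line (log2 fold change -14.93 ± 0.57, edgeR adjusted p = 6.71e-08), and 56.0% of the 75-base windows of Trf transcripts also occur in transcripts of other genes. Igfbp5, an IGF-binding protein of the mammary gland, was at 0.247, 0, 0.301 and 0 CPM in MamBo38 and 2732, 9899, 5707 and 3166 CPM in MamBo89, a 39245-fold ratio of the means (edgeR adjusted p = 6.18e-07). The water channel Aqp5 of glandular cells was at 0.345, 0.393, 0.301 and 0.419 CPM against 1127, 2148, 1811 and 2403 CPM, and the receptor-type phosphatase Ptprf, which sits at cell contacts, at 0.197, 0.0561, 0.0603 and 0 CPM against 1529, 1676, 1679 and 1507 CPM. In neither gene did the lines overlap, and the ratios of the means were 5136 and 20379 (log2 fold changes -12.28 ± 0.36 and -14.27 ± 0.40, edgeR adjusted p = 1.70e-08 and 1.12e-08).

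The other genes lowest in MamBo38 by the same ranking were Lcn2 (lipocalin 2), Lbp (an endotoxin-binding protein), Wfdc18, Ly6d, Col9a1, Krt8, Nkd2 (an antagonist of Wnt signaling) and Epcam. Lcn2 kept a low level in MamBo38, 10.9, 0.729, 7.41 and 7.23 CPM against 4452, 5949, 5193 and 6483 CPM in MamBo89, and NT241016 was the lowest of its line. Lbp was at 0.690, 3.76, 1.33 and 1.03 CPM against 1115, 2020.0, 1572 and 1906 CPM, with the same library the highest of its line. Wfdc18, Ly6d and Col9a1 each had 1 read in all 4 MamBo38 libraries together. For Wfdc18 the ratio of MamBo89 to MamBo38 was 108392 (exact Poisson 95% interval 19454 to 4281240.0, covering the count of the low line only), for Ly6d 95798 (interval 17194 to 3783820.0) and for Col9a1, a cartilage-type collagen, 57324 (interval 10289 to 2264200.0). Wfdc18 varied widely within MamBo89, from 229.6 to 3246 CPM, with AG3 the lowest.

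The 12 genes highest in MamBo38 were Col1a2, Aqp1, Igfbp6, Ddr2, Serpinf1, Mt2, Nid1, Mmp14, Sema3a, Col3a1, Il1rl1 and Gpnmb. Col1a2, a chain of type I collagen, was at 2886, 2466, 3089 and 2935 CPM in MamBo38 and had 3 reads in the 4 MamBo89 libraries together, a ratio of 69696 (exact Poisson 95% interval 23849 to 337964). Ddr2, a receptor kinase that binds fibrillar collagen, was at 797, 648, 693 and 733 CPM in MamBo38 and 9.08, 0.325, 0.117 and 0.0557 CPM in MamBo89, where AG3 alone was above 1 CPM (log2 fold change 8.19 ± 1.22, edgeR adjusted p = 2.84e-04). Aqp1, a water channel of vessels and kidney, was at 856, 1521, 942 and 1030.1 CPM against 0.0481, 0.929, 0.584 and 0.668 CPM. Igfbp6 was at 669, 752, 806 and 762 CPM against 0.0481, 0.186, 0.0584 and 0.0557 CPM, a direction opposite to that of Igfbp5. Igfbp4, named after its values were seen, was also higher, at 1410.3, 1357, 1565 and 1658 CPM against 5.62, 6.64, 8.18 and 2.84 CPM (log2 fold change 8.01 ± 0.34, edgeR adjusted p = 1.16e-07). Il1rl1, the receptor of interleukin 33, had 1 read in MamBo89 and was at 463, 549, 273 and 281 CPM in MamBo38. For Serpinf1, a secreted inhibitor of vessel growth, the ratio was 15086 (interval 5162 to 73152) and for Gpnmb, a membrane glycoprotein, 15848 (interval 4387 to 130864). Mt2 (metallothionein 2), Nid1 (nidogen 1), Mmp14 (a membrane-bound metalloproteinase), Sema3a (a semaphorin) and Col3a1 were each at 273 CPM or more in every MamBo38 library and at 1.11 CPM or less in every MamBo89 library, and 30.2% of the windows of Mt2 occur in other transcripts.

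**Figure D1:**
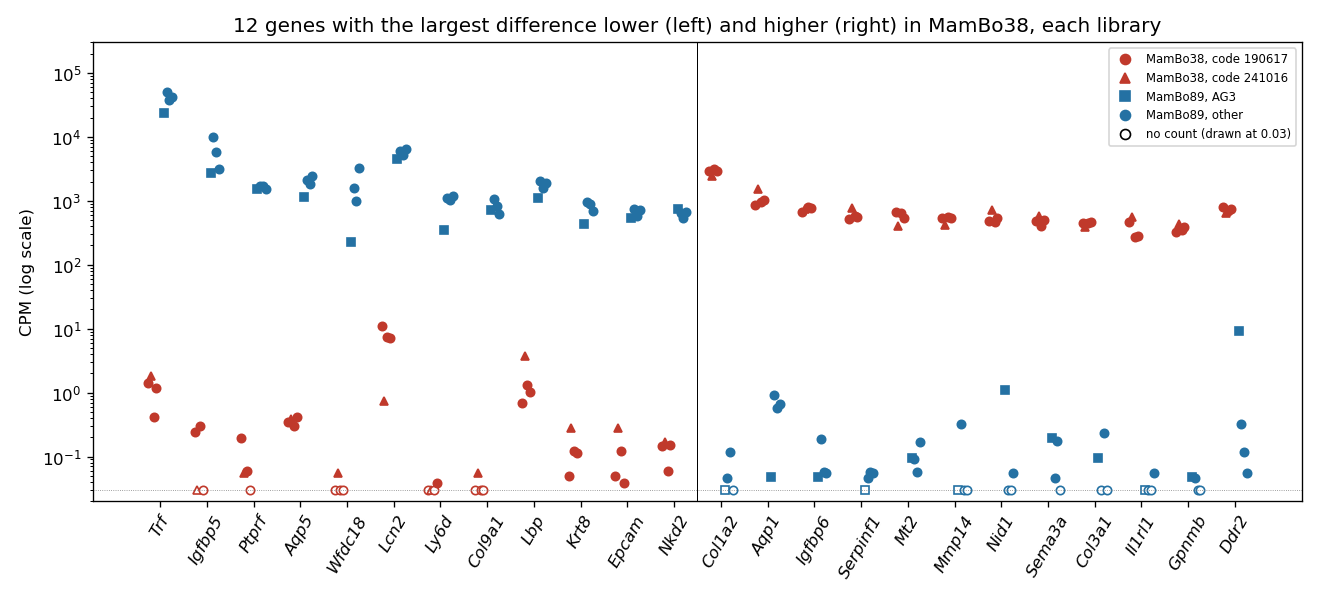
Level of the 12 genes with the largest difference lower (left) and the 12 with the largest difference higher (right) in MamBo38, in CPM on a log axis; each point is 1 library, triangles are NT241016, squares are AG3 and open points had no count. The 24 genes were taken from called genes whose lines do not overlap. AG3 lies above the other MamBo89 libraries in Ddr2 (9.08 CPM) and below them in Wfdc18 (229.6 CPM).

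Epithelial genes were low in MamBo38 as a group. Of 36 genes of epithelial adhesion, 35 were tested, 29 were lower and 2 higher in MamBo38. The median log2 fold change was -7.29 (-6.38 with genes of no read in a line at their bound) beside -0.03 for all genes tested. The desmosome gene Dsp was at 0.345, 0.280, 0.181 and 0.152 CPM in MamBo38 and 253, 286, 275 and 281 CPM in MamBo89 (log2 fold change -10.14 ± 0.21, edgeR adjusted p = 3.36e-09). Dsg2, a desmosomal cadherin, and the tight-junction gene Ocln had no read in any MamBo38 library and were at 151, 141, 134 and 130.4 CPM and at 66.5, 29.7, 26.9 and 22.6 CPM in MamBo89. Against the floor of 3 counts in each library these were at least 911-fold and 238-fold lower in MamBo38, and both were called by edgeR (adjusted p = 1.03e-07 and 3.42e-05). Ocln was highest in AG3.

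The exceptions among the adhesion genes were Cldn1, a claudin, at 6.31, 11.8, 7.23 and 9.44 CPM in MamBo38 and 1.54, 1.58, 1.34 and 0.390 CPM in MamBo89, and Nectin2, at 191, 140.3, 203 and 174 CPM and 75.3, 63.9, 59.3 and 62.2 CPM. Both were higher in MamBo38 without overlap (log2 fold changes 2.83 ± 0.42 and 1.44 ± 0.14, edgeR adjusted p = 2.63e-04 and 1.84e-05). The catenins, which bind cadherins or link them to actin, differed in their calls. Ctnnb1 (beta-catenin), at 819, 863, 861 and 911 CPM against 693, 613, 605 and 604 CPM, and Ctnna1, at 364, 427, 375 and 377 CPM against 529.8, 582, 578 and 509.9 CPM, did not pass the fold threshold. Jup (gamma-catenin), at 16.1, 26.2, 16.6 and 20.8 CPM against 661, 605, 589 and 593 CPM, and Ctnnd1 (p120-catenin), at 198, 283, 208 and 223 CPM against 572, 477, 467 and 469 CPM, were called lower (log2 fold changes -4.94 ± 0.19 and -1.12 ± 0.14, edgeR adjusted p = 6.44e-08 and 1.03e-04). With the shared code only, Ctnnd1 was not called (-0.79, edgeR adjusted p = 0.0518).

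Keratins followed the same direction. Of the 6 luminal keratins, 4 were tested and 3 were lower. Krt8 and Krt18, the paired keratins of luminal cells, were at 0.0493, 0.280, 0.121 and 0.114 and 0.247, 1.07, 0.723 and 0.762 CPM in MamBo38 and at 434, 963, 896 and 703 and 491, 1002, 907 and 677 CPM in MamBo89 (log2 fold changes -12.36 ± 0.45 and -10.10 ± 0.43, edgeR adjusted p = 5.26e-08 and 1.15e-07). Both stayed near or under 1 CPM in every MamBo38 library, while AG3 was the lowest MamBo89 library for each. For Krt8, 23.5% of its 75-base windows occur in other transcripts. All 4 tested genes of the basal and myoepithelial list of 10 were lower too, among them Krt14 (34.1, 6.50, 1.93 and 11.9 CPM in MamBo89 and 2 reads in MamBo38 in all) and Krt15 (46.3, 97.1, 70.0 and 40.5 CPM against 0.0493, 1.74, 0.121 and 0.228 CPM). MamBo38 had at most 1.74 CPM of either in any library.

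Epithelial regulators were mostly lower as well. Of 16 epithelial transcription and splicing factors, 14 were tested, 12 were lower and 1 was higher (median log2 fold change -6.97, or -6.79 at bounds). Esrp1, which sets epithelial splice forms, was at 473, 387, 402 and 324 CPM in MamBo89 and had 1 read in MamBo38, a ratio of 32144 (interval 5769 to 1269640.0). Grhl2, a grainyhead factor of junction genes, was at 0, 0.393, 0 and 0 CPM against 150.5, 172, 169 and 174 CPM, with all 7 of its MamBo38 reads in NT241016, and Ovol2 had no read in MamBo38 and 6.73, 4.55, 4.32 and 6.90 CPM in MamBo89. Tfap2c, a luminal factor, was at 1.63, 7.12, 1.33 and 2.51 CPM against 353, 348, 322 and 458 CPM, again with NT241016 the highest of MamBo38. Klf4 was the member called higher, at 406, 277, 424 and 503 CPM against 40.2, 197, 184 and 212 CPM (log2 fold change 1.35 ± 0.44, edgeR adjusted p = 0.0230). Its lowest value was that of AG3, and with the shared code only it was not called (0.83, edgeR adjusted p = 0.440).

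Promoter sequences of 4 genes are shown because they hold, or lack, the 6-base E-box that Zeb and Snail factors are known to bind. The windows are the 250 bases before the transcription start in RefSeq on GRCm38.p6, each on the strand of its gene and outside exons, with every CAGGTG or CACCTG in capitals. Epcam, an adhesion molecule of simple epithelia, lies on the plus strand (chr17:87635729-87635978) and holds 2. Lsr, a protein of tricellular junctions, lies on the minus strand (chr7:30973470-30973719) and holds 4. Tjp3, a tight-junction scaffold, lies on the minus strand (chr10:81291582-81291831) and holds 1. Mmp14, high in MamBo38, lies on the plus strand (chr14:54431348-54431597) and holds none.

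Epcam: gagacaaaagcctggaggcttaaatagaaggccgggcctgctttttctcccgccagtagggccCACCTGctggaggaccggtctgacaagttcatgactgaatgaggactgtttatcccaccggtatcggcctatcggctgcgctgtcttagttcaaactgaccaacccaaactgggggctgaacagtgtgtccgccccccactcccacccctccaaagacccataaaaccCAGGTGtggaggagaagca

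Lsr: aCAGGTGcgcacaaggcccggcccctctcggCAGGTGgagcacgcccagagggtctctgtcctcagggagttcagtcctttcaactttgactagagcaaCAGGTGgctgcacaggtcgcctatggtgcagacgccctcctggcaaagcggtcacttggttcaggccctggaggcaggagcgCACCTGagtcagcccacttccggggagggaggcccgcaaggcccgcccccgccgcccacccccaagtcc

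Tjp3: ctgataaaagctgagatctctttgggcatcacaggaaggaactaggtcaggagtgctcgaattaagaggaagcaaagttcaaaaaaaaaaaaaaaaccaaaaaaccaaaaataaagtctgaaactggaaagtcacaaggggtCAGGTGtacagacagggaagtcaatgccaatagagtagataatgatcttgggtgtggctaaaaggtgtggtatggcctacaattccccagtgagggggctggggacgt

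Mmp14: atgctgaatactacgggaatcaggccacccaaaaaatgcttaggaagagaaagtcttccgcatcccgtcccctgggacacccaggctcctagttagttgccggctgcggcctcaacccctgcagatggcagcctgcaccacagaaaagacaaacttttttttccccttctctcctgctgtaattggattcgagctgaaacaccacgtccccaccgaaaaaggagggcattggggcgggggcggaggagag

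Epcam was at 0.0493, 0.280, 0.121 and 0.0381 CPM in MamBo38 and 534, 734, 587 and 727 CPM in MamBo89 (log2 fold change -12.41 ± 0.37, edgeR adjusted p = 1.70e-08). Lsr had 1 read in MamBo38 and was at 166, 204, 160.2 and 232 CPM in MamBo89, and 25.9% of its 75-base windows occur in other transcripts. Tjp3 was at 0, 0.112, 0.121 and 0.0762 CPM against 6.97, 8.68, 4.15 and 7.13 CPM. The 3 epithelial genes were low in every MamBo38 library. Mmp14, whose window has no match, was at 529.8, 424, 551 and 529.7 CPM in MamBo38 and 0, 0.325, 0 and 0 CPM in MamBo89. These windows were picked by their matches. Of the other epithelial list genes called lower with a window of 250 bases outside exons, Cldn4 holds 1 match there. Ceacam1, Cldn3, Cldn7, Grhl1, Jup, Krt14, Ocln and Patj hold none there.

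Over all 32851 RefSeq windows of 300 bases (250 before to 50 after a start), 20.2% held CAGGTG or CACCTG on either strand. The share was 24.9% of 2492 windows of genes called lower in MamBo38, 17.2% of 2421 windows of genes called higher and 15.8% of 7725 windows of genes tested and not called. It was 59.0% (23 of 39 windows, 18 of 27 genes) for the epithelial lists called lower, and 12.8% (5 of 39 windows) for the matrix and mesenchymal lists called higher. These shares cover only the genes with a window, 27 of 48 in the epithelial lists and 34 of 48 in the others. The AP-1 motif TGACTCA or TGAGTCA was in 5.20% of all windows, in 10.3% of the first of these lists and in 15.4% of the second. Of the 4862 called genes, 3729 had a window. These are letter matches and were not tested, and binding was not measured.

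The EMT transcription factors split. Of 14, 13 were tested, 8 were higher and 2 lower in MamBo38 (median log2 fold change 3.98). Prrx1, a homeobox factor of mesenchyme, was at 161, 191, 136 and 158 CPM in MamBo38 and 0.144, 0.0464, 0 and 0 CPM in MamBo89 (log2 fold change 11.45 ± 0.38, edgeR adjusted p = 2.82e-08). Zeb1 was at 108, 110.4, 99.4 and 112 CPM against 1.78, 0.232, 0.175 and 0.557 CPM and Zeb2 at 141, 106, 132 and 129.8 CPM against 2.64, 0.650, 1.46 and 0.668 CPM, with AG3 the highest MamBo89 library for both (log2 fold changes 7.25 ± 0.53 and 6.54 ± 0.41, edgeR adjusted p = 3.10e-06 and 1.16e-06). Snai1, by contrast, was at 23.03, 19.2, 26.0 and 28.0 CPM against 24.3, 22.8, 14.9 and 39.5 CPM, and the lines overlapped (-0.08 ± 0.27, edgeR adjusted p = 0.821). Twist1 was at 49.2, 59.9, 47.7 and 53.3 CPM against 36.5, 38.1, 44.4 and 34.2 CPM, without overlap but under the fold threshold (0.46 ± 0.12, edgeR adjusted p = 0.00971). The 2 lower members were Foxq1, at 0.296, 0.280, 0.482 and 0.495 CPM against 16.3, 18.3, 13.9 and 20.5 CPM with 65.5% of its windows shared with other transcripts, and Snai3, with 2 reads in MamBo38 and 12.9, 12.03, 10.9 and 3.17 CPM in MamBo89.

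Mesenchymal and matrix genes were higher in MamBo38 in most cases. The list of mesenchymal cytoskeleton and adhesion genes had 10 members tested, 7 higher and 1 lower (median 4.17). Lgals1, a secreted galectin, was at 2594, 3006, 2947 and 2593 CPM in MamBo38 and 61.7, 147, 143 and 141 CPM in MamBo89, with AG3 the lowest of all (22.6-fold ratio of the means, edgeR adjusted p = 1.44e-06). Cdh2 (N-cadherin) overlapped between the lines, at 26.9, 34.8, 27.8 and 25.4 CPM and 63.4, 24.3, 28.6 and 32.6 CPM (-0.37 ± 0.29, edgeR adjusted p = 0.280). Acta2, smooth muscle actin, was at 9.27, 26.7, 8.56 and 7.46 CPM in MamBo38 and had no read in MamBo89, at least 83.2-fold higher, whereas Tagln, also of contractile cells, was under 2 CPM in all 8 libraries, was called lower (-1.51 ± 0.45, edgeR adjusted p = 0.0150) and shares 53.3% of its windows with other transcripts.

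Of 18 tested collagens, 13 were higher and 1 lower (median 2.04). Col18a1, a basement membrane collagen, was at 3021, 2205, 3024 and 2682 CPM against 739, 332, 309 and 201 CPM, with AG3 the highest of MamBo89. Col5a2, a fibrillar chain, had 3 reads in MamBo89 and was at 176, 240.96, 162 and 138 CPM in MamBo38, a ratio of 4546 (interval 1556 to 22044). Col1a1 differed less than its partner chain Col1a2, at 165, 276, 193 and 217 CPM against 10.6, 22.4, 14.5 and 33.0 CPM (log2 fold change 3.40 ± 0.35, edgeR adjusted p = 2.65e-05) and with 1545 reads in MamBo89. The lower member was Col11a1, at 2.42, 1.51, 2.29 and 1.68 CPM against 157, 87.9, 38.4 and 22.7 CPM (-5.28 ± 0.63, edgeR adjusted p = 7.01e-05).

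Of 19 tested matrix glycoproteins and proteoglycans, 13 were higher and 3 lower (median 5.45). Vcan (versican) was at 443, 334, 387 and 429.8 CPM against 1.11, 1.58, 1.28 and 1.06 CPM. The proteoglycan Dcn (decorin) was at 288, 159, 262 and 259 CPM in MamBo38 and had no read in MamBo89, at least 1547-fold higher. Sparc, a collagen-binding glycoprotein, was at 717, 1279.6, 755 and 793 CPM against 2.499, 43.7, 18.98 and 62.1 CPM, with AG3 the lowest. The lower members included Tnc (tenascin C), at 1.43, 0.449, 0.904 and 0.533 CPM in MamBo38 and 158, 361, 278 and 121 CPM in MamBo89 (log2 fold change -8.11 ± 0.52, edgeR adjusted p = 1.28e-06), a 277-fold ratio of the means against the direction of most of the list.

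Basement membrane genes went both ways, with 8 of 17 tested members higher and 5 lower (median 0.89). The laminin chain Lamb1 was at 1423, 1409, 1433 and 1375 CPM in MamBo38 and 192, 184, 167 and 95.8 CPM in MamBo89. The epithelial chains went the other way, Lama5 at 12.8, 19.9, 14.3 and 16.7 CPM against 587, 718, 802 and 611 CPM and Lamb3 at 0.838, 1.46, 1.02 and 1.18 CPM against 685, 756, 711 and 471 CPM. All 3 passed the test without overlap (log2 fold changes 3.14 ± 0.22, -5.41 ± 0.20 and -9.18 ± 0.26, edgeR adjusted p = 2.19e-06, 5.07e-08 and 1.24e-08).

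Of 18 tested matrix proteases and inhibitors, 15 were higher and 2 lower (median 3.37), a share called of 94.4% beside 39.2% of all genes. Both enzymes and inhibitors were among those higher: Mmp14 with the values above, and the metalloproteinase inhibitor Timp3 at 1558, 2221, 1516 and 1652 CPM against 232, 276, 201 and 113 CPM (3.08 ± 0.28, edgeR adjusted p = 1.20e-05, 20.6% of windows shared). The gelatinase Mmp2 was at 516, 385, 568 and 576 CPM against 3.03, 53.7, 72.9 and 85.7 CPM, with AG3 far below the other MamBo89 libraries, and with the shared code only it was not called (2.86, edgeR adjusted p = 0.114). Serpine2, a protease inhibitor, was lower, at 206, 208, 169.8 and 176 CPM against 556, 509.6, 485 and 742 CPM.

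In these bulk libraries, fewer cells of a type and less RNA per cell cannot be told apart. The marker lists of other cell types gave these values. Of 15 fibroblast markers, 9 were tested, 7 were higher and 1 lower in MamBo38, and their summed level was 3935 to 4738 CPM in MamBo38 and 65.4 to 115 CPM in MamBo89. This sum was mostly Col1a2, Pdgfra, Dcn and Col1a1, which other lists here also hold. Lum, Tcf21 and Dpp4 had no read in MamBo38 and Thy1 and Fap had 1 read each. Summed endothelial markers were at 60.3 to 82.6 CPM against 0.817 to 2.12 CPM, almost all of it Eng (70.8 CPM on average in MamBo38), while Cdh5, Tie1 and Cldn5 had no read in MamBo38. Summed immune markers were at 27.3 to 50.4 CPM against 7.74 to 16.9 CPM, mostly Cd68 (37.3 CPM on average in MamBo38), with Cd3e, Cd8a, Ms4a1, Adgre1 and Tyrobp at 0 in MamBo38 and 1 read of Ptprc. The adipocyte list summed to 1.85 to 2.41 CPM against 0.325 to 0.817 CPM, with Fabp4 its 1 tested member. The pericyte and smooth muscle list summed to 60.7 to 89.6 CPM against 149 to 240.3 CPM with 3 tested members higher and 2 lower, and no skeletal muscle marker had enough counts for a test. The part of host cells in these differences was not tested. In MamBo38, the epithelial markers Cdh1, Epcam, Krt8 and Krt18 were present at 0.0381 to 1.52 CPM only. Krt19, chosen as a marker with them, ranked 5 among the 6 luminal keratins by mean CPM over the 8 libraries and is not described.

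**Figure D2:**
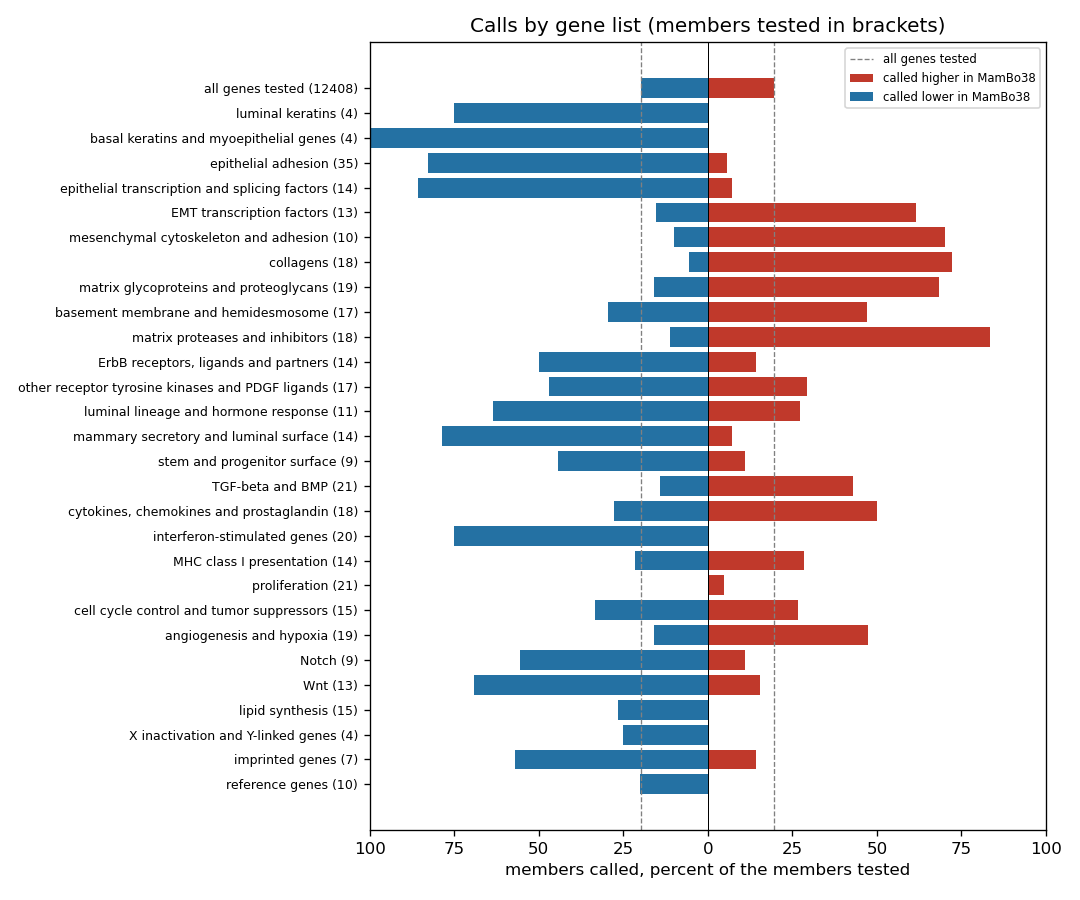
Percent of the tested members of each gene list called higher (right, red) or lower (left, blue) in MamBo38 by edgeR, with the number tested in brackets and dashed lines at the shares of all genes tested, 19.5% higher and 19.7% lower. Keratin, epithelial, secretory and interferon-stimulated lists extend to the left, and collagen, matrix and protease lists to the right.

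Genes of the ErbB system went both ways. Of 15, 14 were tested, 7 were lower, 2 higher and 5 not called in MamBo38 (median log2 fold change -1.86). The share called was 64.3% beside 39.2% of all genes. The mouse Erbb2 gene, which is not the transgene, was at 19.6, 24.2, 18.7 and 18.0 CPM in MamBo38 and 161, 157, 134 and 169 CPM in MamBo89 (-2.95 ± 0.13, edgeR adjusted p = 1.64e-07). Its usual partner Erbb3 was at 3.50, 5.72, 2.95 and 3.96 CPM against 133, 135, 115 and 140.4 CPM (-5.02 ± 0.21, edgeR adjusted p = 1.04e-07), and Egfr overlapped, at 16.8, 34.3, 16.5 and 15.4 CPM against 28.0, 22.1, 17.8 and 20.6 CPM. The ligands went both ways. Tgfa had no read in MamBo38 and was at 84.4, 98.9, 106 and 91.6 CPM in MamBo89, at least 624-fold lower, and Areg (amphiregulin) and Hbegf were lower too, at 17.5, 8.36, 13.8 and 12.9 against 137, 91.4, 143 and 19.5 CPM and at 32.8, 36.7, 32.0 and 31.3 against 175, 207, 227 and 159 CPM. Ereg (epiregulin) had 2 reads in MamBo89 and was at 162, 167, 107 and 123 CPM in MamBo38, a ratio of 5392 (interval 1493 to 44522), and Nrg1 (neuregulin 1, a ligand of Erbb3) was at 22.4, 24.7, 18.8 and 16.3 CPM against 4.57, 1.67, 2.74 and 1.11 CPM (3.02 ± 0.40, edgeR adjusted p = 1.41e-04).

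Among the other receptor tyrosine kinases and PDGF ligands, 17 of 20 were tested, 5 were higher and 8 lower (median -0.81). The PDGF receptors were among the higher ones, Pdgfra at 963, 820.4, 940.0 and 1003 CPM against 24.2, 37.99, 35.3 and 66.1 CPM and Pdgfrb at 94.8, 114, 104 and 129.5 CPM against 0.865, 0.186, 0 and 0.111 CPM (log2 fold changes 4.51 ± 0.31 and 8.47 ± 0.56, edgeR adjusted p = 1.83e-06 and 1.51e-06). Their ligand Pdgfb had 2 reads in MamBo38 and was at 6.97, 12.3, 10.3 and 18.1 CPM in MamBo89. Axl, at 273, 374, 283 and 329.8 CPM against 68.9, 8.82, 10.04 and 35.9 CPM, and Met, at 139.6, 185, 118 and 124 CPM against 66.7, 22.9, 24.7 and 14.4 CPM, were higher in MamBo38, with AG3 above the other MamBo89 libraries in both. Kit, the receptor of stem cell factor and a marker of luminal progenitors, had 2 reads in MamBo38 and was at 93.0, 355, 329.9 and 320.4 CPM in MamBo89, with AG3 again apart from the rest.

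Milk and luminal genes were low in MamBo38. Of 17 secretory and luminal surface genes, 14 were tested, 11 were lower and 1 higher (median -8.65, or -6.98 at bounds). The caseins Csn2 and Csn3 were at 64.7, 157, 95.8 and 53.8 CPM and 333, 1382, 1009 and 1008 CPM in MamBo89, and in MamBo38 Csn2 had no read (at least 608-fold lower) and Csn3 was at 4.59, 5.27, 5.42 and 4.07 CPM. Mfge8, a milk fat globule protein, kept a higher level, 319, 312, 364 and 339.7 CPM against 1989.7, 3437, 2658 and 3095 CPM. The member called higher was Xdh, xanthine dehydrogenase, at 794, 352, 779.6 and 713 CPM against 85.6, 85.8, 122 and 63.1 CPM (2.89 ± 0.30, edgeR adjusted p = 2.70e-05). Prlr, the prolactin receptor, had no read in MamBo38 and was at 42.9, 60.1, 64.5 and 36.9 CPM in MamBo89, and Stat5a, which acts below it, was at 20.3, 22.5, 23.2 and 21.8 CPM against 121, 258, 231 and 177 CPM.

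Of 11 tested genes of the luminal lineage and hormone response, 7 were lower and 3 higher (median -2.84). The estrogen receptor gene Esr1 was among the higher ones, at 20.2, 26.0, 19.6 and 24.9 CPM against 8.07, 8.31, 9.28 and 7.13 CPM (log2 fold change 1.47 ± 0.16, edgeR adjusted p = 4.25e-05). Surface genes used to describe mammary stem and progenitor cells did not move together, with 1 higher, 4 lower and 4 not called of 9 tested. The share called was 55.6% beside 39.2% of all genes. Cd24a was at 3.50, 1.29, 2.65 and 2.09 CPM against 104, 98.4, 66.9 and 94.4 CPM (-5.25 ± 0.30, edgeR adjusted p = 6.14e-07), whereas Cd44 overlapped, at 189, 291, 177 and 196 CPM against 227, 233, 243 and 236 CPM, and so did Itgb1 (CD29), at 850.0, 911, 727 and 845 CPM against 868, 1179, 1209 and 1046 CPM. Ly6a (Sca1) was at 191, 215, 206 and 182 CPM against 7.64, 305, 272 and 308 CPM, so that MamBo38 lay between AG3 and the other MamBo89 libraries. Procr, a receptor of protein C, was at 62.2, 42.3, 57.7 and 46.6 CPM in MamBo38 and had no read in MamBo89 (at least 334-fold higher).

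Interferon-stimulated genes were lower in MamBo38 where they were called: 15 of 20 tested, with none higher and a median log2 fold change of -3.12. Irf7, which drives interferon production, was at 2.12, 6.34, 3.50 and 4.19 CPM against 282, 242, 428 and 371 CPM (-6.36 ± 0.36, edgeR adjusted p = 6.19e-07). Oas2, a sensor of double-stranded RNA, was at 0, 0.953, 0.181 and 0.267 CPM against 64.3, 54.0, 80.9 and 80.1 CPM and Usp18 at 0.0986, 1.74, 0.301 and 0.533 CPM against 134, 88.1, 168 and 84.7 CPM. In Irf7, Oas2 and Usp18 the MamBo38 library NT241016 was the highest of its line, and it still lay far below MamBo89. Of 14 MHC class I presentation genes, 4 were higher and 3 lower (median -0.18), a share called of 50% beside 39.2% of all genes. The light chain B2m was at 627, 629, 644 and 689.9 CPM against 271, 239, 243 and 234 CPM and H2-D1 at 1007, 829, 1159 and 1090.5 CPM against 589, 313, 403 and 342 CPM, both higher in MamBo38, and H2-K1 was at 175, 196, 197 and 188 CPM against 159, 164, 177 and 176 CPM and not called (0.16 ± 0.09, edgeR adjusted p = 0.155). The immunoproteasome subunit Psmb8 was at 85.4, 112, 99.6 and 92.9 CPM against 0.673, 2.32, 2.63 and 2.51 CPM and Nlrc5, an activator of class I genes, at 36.0, 29.5, 36.8 and 30.5 CPM against 4.71, 2.32, 4.55 and 1.28 CPM (log2 fold changes 5.59 ± 0.35 and 3.37 ± 0.37, edgeR adjusted p = 1.23e-06 and 4.24e-05).

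Of 18 tested cytokine, chemokine and prostaglandin genes, 9 were higher and 5 lower (median 1.35). The prostaglandin E synthase Ptges was at 257, 256.3, 272 and 274 CPM against 6.92, 20.0, 14.7 and 38.4 CPM and Csf1, a growth factor of macrophages, at 874, 672, 951 and 841 CPM against 210.4, 79.6, 87.5 and 42.9 CPM. Il6 varied within MamBo38, at 60.7, 4.99, 34.9 and 31.4 CPM, with the lowest value in NT241016, and was at 0.0481, 0.743, 1.28 and 0.724 CPM in MamBo89. Il1rn, the antagonist of the interleukin 1 receptor, had 1 read in MamBo38 and was at 27.3, 14.8, 9.75 and 6.24 CPM in MamBo89.

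Genes of cell division were mostly not called. Of 21 proliferation genes, all tested, 1 was called (4.76% beside 39.2% of all genes), and the median was 0.16. Top2a, a topoisomerase of dividing cells, was at 81.7, 261, 76.0 and 94.1 CPM in MamBo38 and 305, 88.8, 79.3 and 74.3 CPM in MamBo89, and Mki67 at 30.6, 115, 27.7 and 33.0 CPM and 134, 51.2, 36.8 and 43.5 CPM. In each line 1 library stood apart, NT241016 in MamBo38 and AG3 in MamBo89. The remaining libraries of both lines overlapped in Top2a. In Mki67 those of MamBo38 (27.7 to 33.0 CPM) lay below those of MamBo89 (36.8 to 51.2 CPM). Leaving out 1 library moved the log2 fold change of Top2a between -0.71 and 0.67. The called member was Aurka, a mitotic kinase, at 19.1, 67.6, 20.0 and 19.8 CPM against 24.1, 9.01, 8.47 and 6.74 CPM (1.38 ± 0.54, edgeR adjusted p = 0.0487). It was not called without the MamBo38 library NT241016 (0.69, edgeR adjusted p = 0.198), nor without any 1 of the untreated, TRNT and TRT libraries of MamBo89 (adjusted p = 0.110 to 0.113).

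Cell cycle inhibitors at the Cdkn2a locus had no read in MamBo38. Cdkn2a (chr4:89274471-89294653 on GRCm38, encoding p16 and Arf), Cdkn2b (chr4:89306299-89311039, p15) and the neighboring metabolic gene Mtap (chr4:89137122-89181081) had 0 counts in all 4 MamBo38 libraries and 436, 3331 and 3111 counts in MamBo89. In MamBo89 they were at 7.98, 5.11, 6.13 and 3.06, 54.9, 47.7, 45.3 and 21.5 and 84.9, 29.6, 25.8 and 14.7 CPM, with AG3 the highest in each, so they were at least 36.5-fold, 277-fold and 254-fold lower in MamBo38 (edgeR adjusted p = 5.39e-05, 1.20e-05 and 1.88e-04). Of the genes before them on the chromosome, chosen after their values were seen, Klhl9 and Focad were present in both lines: Klhl9 (chr4:88718292-88722465, with only genes of the interferon family and predicted genes between it and Mtap) at 60.9, 74.1, 54.5 and 61.6 CPM against 91.3, 57.3, 54.7 and 60.0 CPM and Focad (chr4:88094629-88411011) at 33.7, 37.6, 35.6 and 36.9 CPM against 31.5, 27.6, 28.4 and 25.9 CPM. Hacd4 (chr4:88396144-88438928), which lies beside Focad, was at 13.3, 32.2, 12.2 and 21.2 CPM against 0.0961, 0.0929, 0.292 and 0.167 CPM. Dmrta1, the next gene on the other side (chr4:89679436-89694772), was at 0.0493, 0.0561, 0.0603 and 0.190 CPM against 8.12, 0.836, 0.526 and 0 CPM and had too few counts for a test. DNA was not measured.

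**Figure D3:**
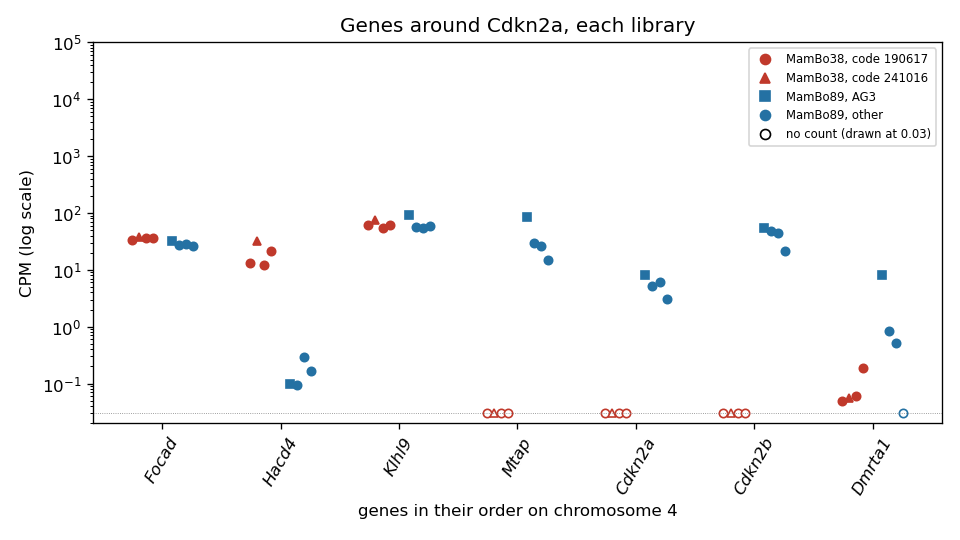
Level of 7 genes around Cdkn2a in their order along chromosome 4, in CPM on a log axis; each point is 1 library and open points had no count. Mtap, Cdkn2a and Cdkn2b have no count in the 4 MamBo38 libraries, while Klhl9 and Focad lie at 25.9 CPM or more in every library.

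The list of cell cycle regulators and tumor suppressors also holds Cdkn2a, Cdkn2b and Mtap. Of its 15 tested members, 4 were higher and 5 lower (median 0.23), a share called of 60% beside 39.2% of all genes. Cdkn1a, which encodes p21, was at 473, 491, 492 and 448 CPM against 150.0, 83.7, 86.4 and 70.2 CPM and Mdm2, a negative regulator of p53, at 527, 984, 497 and 511 CPM against 168, 86.7, 92.8 and 92.9 CPM, both higher in MamBo38 (log2 fold changes 2.29 ± 0.23 and 2.52 ± 0.30, edgeR adjusted p = 2.15e-05 and 7.65e-05). Mdm2 was highest in NT241016 of MamBo38 and, in MamBo89, in AG3. Ccnd1 (cyclin D1, 20.6% of windows shared) was at 251, 746, 243 and 257 CPM against 1292, 852, 814 and 651 CPM and called lower (-1.27 ± 0.40, edgeR adjusted p = 0.0192). NT241016 was far above the others of MamBo38, and with that code only Ccnd1 was not called (-0.26, edgeR adjusted p = 0.655).

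Signaling lists moved in part. Of 9 tested Notch genes 5 were lower and 1 higher (median -2.51), a share called of 66.7% beside 39.2% of all genes. Of the receptors, Notch1 was at 45.8, 73.4, 57.3 and 58.9 CPM against 369, 336, 295 and 337 CPM and Notch3 at 9.96, 15.1, 14.5 and 13.4 CPM against 147, 229, 189 and 170.4 CPM. Of 13 tested Wnt genes 9 were lower and 2 higher (median -1.62). The secreted antagonist Sfrp1 had no read in MamBo38 and was at 177, 395, 440.3 and 757 CPM in MamBo89 (at least 2894-fold lower, edgeR adjusted p = 2.06e-05). The ligands Wnt7b and Wnt5a went opposite ways, at 0.986, 1.12, 1.02 and 0.685 CPM against 149.8, 389.5, 388 and 275 CPM and at 26.9, 19.5, 24.95 and 26.7 CPM against 0.0961, 0.279, 0.0584 and 0.223 CPM. Of 21 TGF-beta and BMP genes 9 were higher and 3 lower (median 0.40), a share called of 57.1% beside 39.2% of all genes. The ligands went opposite ways, with Tgfb1 at 71.0, 61.1, 81.6 and 80.8 CPM against 0.240, 0.279, 0.292 and 0.445 CPM and Tgfb3 at 24.3, 29.0, 27.5 and 32.7 CPM against 123, 325, 222 and 295 CPM (log2 fold changes 7.86 ± 0.22 and -3.09 ± 0.29, edgeR adjusted p = 1.10e-08 and 1.45e-05). Ltbp1, which binds latent TGF-beta, was at 183, 279, 155 and 147 CPM against 26.1, 120.5, 121 and 93.0 CPM and called higher (1.09 ± 0.42, edgeR adjusted p = 0.0476), but not without AG3 (0.78, edgeR adjusted p = 0.0110) nor without the MamBo38 library NT241016 (0.87, edgeR adjusted p = 0.115). Nor was Ltbp1 called with the shared code only (log2 fold change 1.65), the treated libraries only (0.51) or the untreated ones only (1.66).

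Of 19 tested genes of angiogenesis and hypoxia, 9 were higher and 3 lower (median 0.91), a share called of 63.2% beside 39.2% of all genes. Vegfa, at 529.7, 421, 596 and 592 CPM against 228, 262, 208 and 253 CPM, was among those not called with the shared code only (log2 fold change 0.84). Of 15 lipid synthesis genes, 4 were lower and none higher (median -0.60), a share called of 26.7% beside 39.2% of all genes. Of 10 reference genes that are often taken as constant, 2 were lower and none higher (median -0.36), a share called of 20.0%. Hprt was at 76.2, 64.04, 60.1 and 70.6 CPM against 215, 184, 207 and 191 CPM (-1.56 ± 0.11, edgeR adjusted p = 2.60e-06), and Tbp at 18.0, 19.6, 18.99 and 17.7 CPM against 31.5, 20.4, 19.7 and 22.7 CPM and not called.

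Members of some families went both ways. Of 39 Hox genes, which record body position, 14 were tested, 9 were higher and 1 lower (median 3.36, or 3.31 at bounds). Hoxb4 was at 16.3, 17.8, 16.6 and 14.96 CPM in MamBo38 and had no read in MamBo89 (at least 105-fold higher), Hoxa13 had none in MamBo38 and was at 1.11, 5.94, 5.02 and 6.68 CPM in MamBo89 (at least 30.7-fold lower), and Hoxa3 was at 3.25, 2.92, 2.53 and 2.51 CPM against 2.499, 2.97, 2.80 and 3.06 CPM. Of 25 glutathione transferases, which couple glutathione to foreign compounds, 18 were tested, 11 were higher and 2 lower (median 1.56). Gstm1 was at 239.6, 249.5, 306 and 284 CPM against 1.78, 0.186, 0.234 and 0.501 CPM and Gstp1 at 1445, 1354, 1539.8 and 1389 CPM against 86.9, 110.0, 116 and 138 CPM, with 29.2% of the windows of Gstp1 shared with other transcripts. Of 7 tested imprinted genes, which are read from 1 parental copy, 4 were lower and 1 higher (median -1.71). Peg3 and Snrpn had no read in MamBo38 and were at 4.57, 60.1, 63.8 and 103 CPM and 33.1, 66.5, 59.8 and 60.2 CPM in MamBo89, with AG3 the lowest for both and 22.6% of the windows of Snrpn shared, and Impact was higher, at 75.4, 91.9, 69.0 and 73.1 CPM against 9.32, 11.5, 11.3 and 12.9 CPM (2.78 ± 0.15, edgeR adjusted p = 4.25e-07).

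The share of calls differed from chromosome to chromosome. Over genes with a mean of at least 5 CPM in both lines, the median log2 fold change was 0.69 on chromosome 10 (441 genes), 0.77 on chromosome 14 (289 genes), 0.66 on chromosome 15 (364 genes) and -0.84 on the X chromosome (264 genes), beside -0.08 over the other 16 autosomes together (7554 genes). These 4 chromosomes were picked after the medians of all were seen, so no test is given. On chromosome 14, 87.2% of the genes were above 0, on chromosome 10 81.2%, on chromosome 15 80.8%, and on the X chromosome 21.2%. Chromosomes 10, 14 and 15 held 12.2% of the genes tested but 24.6% of those called higher (595 genes) and 6.19% of those called lower. The X chromosome held 3.21% of the genes tested and 7.25% of those called lower (177 genes). With the shared code only, the 4 medians were 0.74, 0.84, 0.62 and -0.77.

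On 3 chromosomes the shift covered a stretch, with the ends set after 10-Mb bins were seen. On the X chromosome, genes that start between 10 and 120 Mb (GRCm38) had a median of -1.20, which is a ratio of 0.434, and 92.1% of 164 genes were below 0, whereas between 120 and 180 Mb the median was -0.17 (77 genes) and before 10 Mb -0.04 (23 genes). In that stretch, Kdm6a, a histone demethylase that escapes X inactivation, was at 62.6, 61.6, 53.0 and 54.1 CPM against 109.7, 139, 146 and 151 CPM (-1.24 ± 0.13, edgeR adjusted p = 2.61e-05), and the RNA helicase Ddx3x was at 471, 569, 434 and 496 CPM against 833, 954, 1086 and 1064 CPM, just short of the fold threshold (edgeR adjusted p = 1.63e-04). Chromosome 4 had a median of 0.76 between 130 and 160 Mb (192 genes, 82.3% above 0) beside -0.28 before 130 Mb. Chromosome 11 had a median of -0.50 between 100 and 130 Mb (238 genes, 77.3% below 0) beside 0.10 before 100 Mb. The number of copies of these chromosomes was not measured.

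**Figure D4:**
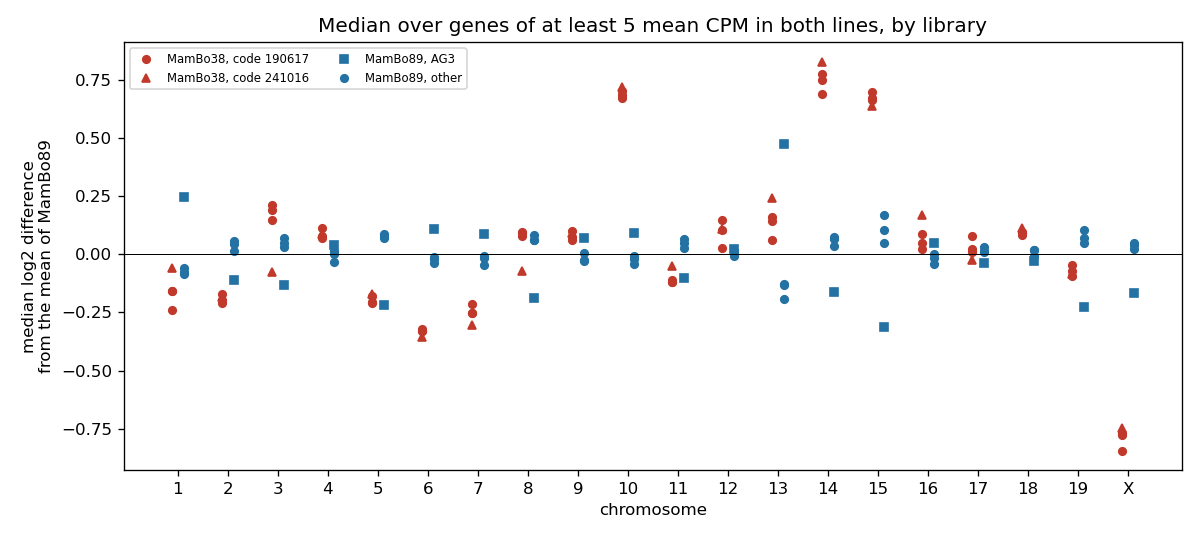
Median over genes, by chromosome, of the log2 difference of a library from the mean of the MamBo89 libraries, for genes of at least 5 mean CPM in both lines; each point is 1 library. The 4 MamBo38 libraries lie together at 0.64 to 0.83 on chromosomes 10, 14 and 15 and at -0.84 to -0.75 on X. AG3 lies farthest from the other MamBo89 libraries on chromosomes 13 (0.47) and 15 (-0.31), and apart on further ones, among them 1, 5, 8 and 19.

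The shared code is that of 1 MamBo38 and all MamBo89 libraries, so the comparison was repeated within it. With the shared code only (1 against 4 libraries, the lone one assumed to vary like MamBo89), edgeR called 4684 of 13223 genes (35.4%), 2325 higher and 2359 lower. Of the 4862 genes called with all 8 libraries, 3933 (80.9%) were also called in the same direction, 1989 higher and 1944 lower. The share rose with the size of the difference, from 67.9% of genes that differed by 1 to 2 on the log2 scale, to 84.4% at 2 to 4, 96.7% at 4 to 8 and 99.3% at 8 or more. Of the 929 that were not called, 544 kept the sign and the fold but had an adjusted p of 0.1 or more, 362 kept the sign with a smaller fold, 16 were not tested and 7 had the opposite sign, none of which was called. Another 751 genes were called within the code and not with all libraries.

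The abundant genes among those not held included Scd1, a desaturase of lipid synthesis, which was at 625, 528, 586 and 621 CPM in MamBo38 and 742, 8691, 7652 and 8129.5 CPM in MamBo89. AG3 was close to MamBo38 and far below the other MamBo89 libraries, and the log2 fold change was -3.42 with all libraries and -3.56 within the code (edgeR adjusted p = 0.116). Pgk1, of glycolysis, was at 1043, 954, 948 and 988 CPM against 1314, 2894, 2217 and 3737 CPM and Ly6e at 628, 964, 825 and 782 CPM against 895, 2447, 2274 and 2619 CPM, again with AG3 the lowest of its line (within the code -1.39 and -1.08, edgeR adjusted p = 0.132 and 0.233). Tpt1, Rps12 and Rplp1, which belong to the translation machinery or its regulation, were higher by log2 fold changes of 1.07, 1.16 and 1.28 with all libraries and by 0.81, 0.93 and 0.84 within the code, under the fold threshold. Of the transcript windows of Pgk1, Rplp1, Rps12 and Tpt1, 52.8%, 45.9%, 19.5% and 17.5% also occur in other genes. Without AG3, 1 against 3 libraries of the code gave 5768 calls, an alternative chosen after seeing the data.

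**Figure D5:**
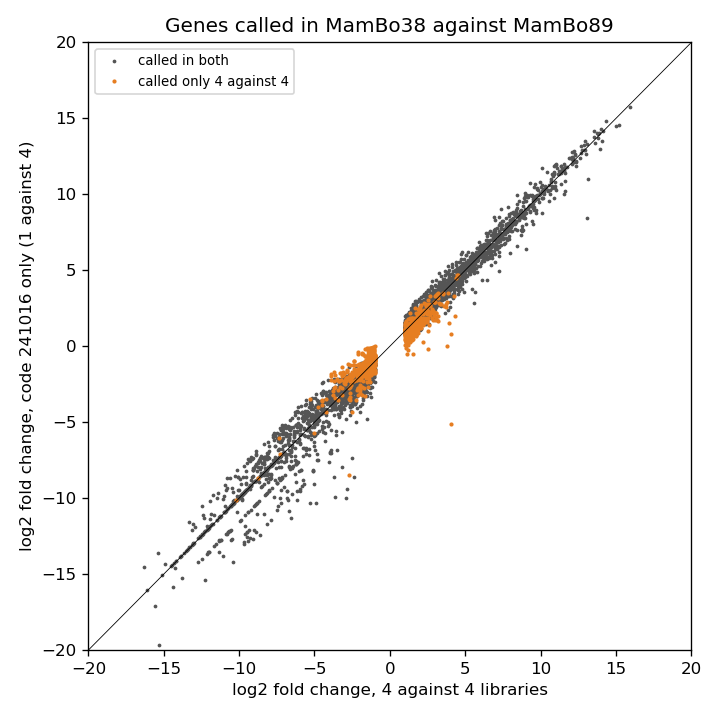
Log2 fold change of MamBo38 against MamBo89 with the shared code only (vertical axis) against that with all 8 libraries (horizontal axis), for the genes called with all 8; the line marks equal values. The code in the axis label is the shared one; grey points (3933) were also called within it and orange points (929) were not, and the share of orange is highest at differences of 1 to 2, where 67.9% held.

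Whether the line difference moved with trastuzumab was asked by an interaction test. The interaction of line and treatment, with 2 treated and 2 untreated libraries in each line, gave 0 calls of 12983 genes by edgeR (0% called, 218 at an unadjusted p under 0.05) and 2 by DESeq2. Without the untreated MamBo89 library, which leaves AG3 as the only untreated library of that line, edgeR gave 826 calls, 377 positive and 449 negative. In MamBo38 neither treated library has the shared code, so that treatment and code cannot be fully told apart there. Simulated 8-fold changes were recovered in 75.5% of genes in this design. The simulation set no library apart within a line, as AG3 and NT241016 are here, so this share does not measure the power of the test on these data.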

How the data were processed

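RNA of each culture was read as unstranded TruSeq libraries with 75-nt single-end reads. The authors aligned the reads to mm10 with STAR 2.5 and deposited expected counts per gene made with RSEM 1.3.0, per the labels and the study's methods. These expected counts were all whole numbers in the deposited table and were used as given. Groups were taken from the line in each label. Genes that passed filterByExpr (minimum count 10, minimum total 15) were tested with edgeR 4.0.16 in R 4.3.3 (quasi-likelihood test, TMM sizes, Benjamini-Hochberg over all genes tested), with calls at adjusted p under 0.1 and a difference of 1 or more on the log2 scale. An SE was taken as the size of the log2 fold change over the root of its F value, and the prior count was 0.125. DESeq2 1.42.0, other filters, scalings and subsets of libraries were the alternatives. A gene with no count in a line was set to a floor of 3 counts in each library. Figures and tables were made with Python 3.11.15, pandas 2.3.3, numpy 2.4.6 and matplotlib 3.10.9.

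The genes named were, by rule, list members with values for up to 4 of the most abundant, the 12 non-overlapping called genes with the largest difference of mean log2(CPM + 1) in each direction, and the 6 most abundant called genes not called with the shared code only. Others were named after their values were seen. The 114 called genes with predicted symbols were counted and not described. The members and lists were chosen with earlier results of these data known. In a test on simulated data with 200 genes changed 8-fold, edgeR called 98.5% of them with 4 against 4 libraries (10 false calls of 12316 genes), 87.5% with 1 against 4 (17 of 12394) and 75.5% for the interaction (16 of 12395). The share of 75-base transcript windows that occur in other genes was computed from GENCODE transcripts, since reads of near-identical genes may be split between them.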

Additional observations from a re-analysis of the deposited data

Results flagged for a closer look

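Within a line, 1 library lay far from the other 3 in 33 of 286 groups of gene and line (11.5%), by the gap to its nearest neighbor divided by the range (a Dixon ratio above its limit for 4 samples). Chance flags about 1 in 20 groups, and genes of a library are not independent. The genes are those named in the text, in part chosen by their values, so the share flagged cannot be weighed against that rate.

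In AG3 of MamBo89, this was so for 17 genes. Ddr2 was at 9.08 CPM (others 0.0557 to 0.325), Nid1 was at 1.11 CPM (others 0 to 0.0557) and Scd1 was at 742 CPM (others 7652 to 8691). Tpt1 was at 957 CPM (others 1694 to 1830.4), Ocln was at 66.5 CPM (others 22.6 to 29.7) and Ctnnb1 was at 693 CPM (others 604 to 613). Klf4 was at 40.2 CPM (others 184 to 212), Lgals1 was at 61.7 CPM (others 141 to 147) and Kit was at 93.0 CPM (others 320.4 to 355). Ly6a was at 7.64 CPM (others 272 to 308), Psmb8 was at 0.673 CPM (others 2.32 to 2.63) and Mdm2 was at 168 CPM (others 86.7 to 92.9). Top2a was at 305 CPM (others 74.3 to 88.8), Mki67 was at 134 CPM (others 36.8 to 51.2) and Aurka was at 24.1 CPM (others 6.74 to 9.01). Klhl9 was at 91.3 CPM (others 54.7 to 60.0) and Ctnnd1 was at 572 CPM (others 467 to 477).

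In NT241016 of MamBo38, this was so for 12 genes. Krt15 was at 1.74 CPM (others 0.0493 to 0.228), Grhl2 was at 0.393 CPM (others 0) and Acta2 was at 26.7 CPM (others 7.46 to 9.27). Fn1 was at 15668 CPM (others 24336 to 25677), Sparc was at 1279.6 CPM (others 717 to 793) and Egfr was at 34.3 CPM (others 15.4 to 16.8). Cd44 was at 291 CPM (others 177 to 196), Mdm2 was at 984 CPM (others 497 to 527) and Ccnd1 was at 746 CPM (others 243 to 257). Top2a was at 261 CPM (others 76.0 to 94.1), Mki67 was at 115 CPM (others 27.7 to 33.0) and Aurka was at 67.6 CPM (others 19.1 to 20.0).

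In the untreated MamBo89 library, Igfbp6 was at 0.186 CPM (others 0.0481 to 0.0584). In the untreated MamBo89 library, Mmp14 was at 0.325 CPM (others 0). In the TRT library of MamBo38, Cdh1 was at 1.52 CPM (others 0.841 to 0.937). In the TRNT library of MamBo89, Cd68 was at 16.7 CPM (others 6.87 to 8.52). No explanation was tested.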

How the results depend on the processing

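The labels give no replicate numbers, but both lines share the trastuzumab schedules, and with the schedule as a covariate edgeR gave 4876 calls, 2454 higher and 2422 lower. Against 4862 calls with all 8 libraries, the filter of 10 counts in every library left 3103, 1559 higher and 1544 lower, and with the shared code only it left 3017 in place of 4684, 1507 higher and 1510 lower. This filter removes genes that are silent in a line. With the shared code only and AG3 left out (chosen after seeing the data), 11626 genes did not overlap, where 1 library stands against 3. The interaction gave 0 calls by edgeR and 2 by DESeq2, both lower. Leaving out 1 library gave 0 to 826 interaction calls, 0 to 377 higher and 0 to 449 lower, all from leaving out the untreated MamBo89 library; the cause was not tested. Other counts of calls stayed within 1.5 times, from 3828 (glmTreat against 2-fold) to 6265 (no filter) with all libraries. Of 144 called genes followed by name, 129 stayed called in every alternative and none reversed. Most losses came with the shared code only (12 genes), glmTreat (11) and the untreated libraries only (9). With 4 libraries a line, 1 of them apart in each, small differences are the least certain.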
